A study of Mus musculus with 2 samples.

Results

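The genes described here encode the enzymes, carriers and regulators of glycolysis and of the pentose phosphate pathway, followed in mouse embryonic fibroblasts (MEFs) with and without normal Dnmt1, the maintenance DNA methyltransferase. The list of 39 genes was drawn up by function, but with earlier results of these data known. Each gene was looked up by its symbol among the 20906 entries of the deposited expression table that carry a symbol. Of the 39, 37 had an entry, and Pgk2 and G6pdx were not analysed here. Ldhc was listed at 0 in both libraries without having been tested by the authors, which left 36 members with a usable value. Aldoc and Pgam2 stayed under 1 RPKM in both libraries, so 34 members passed the filter on low values described below.

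The messenger RNA of Dnmt1+/+ and of Dnmt1-/- MEFs was sequenced, with 1 library for each genotype. The cells named Dnmt1-/- carry a hypomorphic Dnmt1 allele on both chromosomes, and both lines also lack trp53, which encodes p53, so the Dnmt1+/+ line is a trp53-null control and not a wild-type one. The labels give the strain as unknown, and each genotype is represented by 1 line grown in standard culture. With 1 library per genotype no difference below has a replicate check, no test was possible, and every value describes these 2 libraries only. The unit, RPKM, counts the reads on a transcript relative to its length and to the depth of its library, so levels of different genes can be set side by side. A change is the difference of log2(RPKM + 0.1) between Dnmt1-/- and Dnmt1+/+, a scale that understates the change of low genes. In bulk RNA, fewer cells with a transcript and less transcript per cell cannot be told apart.

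Glycolysis takes glucose to pyruvate in the cytosol. Its upper steps spend ATP to trap and split the sugar, and its lower steps recover ATP and NADH. Lactate dehydrogenase then regenerates NAD by turning pyruvate into lactate, or the pyruvate enters mitochondria through pyruvate dehydrogenase, which the Pdk kinases switch off. The oxidative branch of the pentose phosphate pathway draws off glucose-phosphate to make NADPH and ribose-phosphate, and its non-oxidative branch, run by transketolase and transaldolase, shuttles sugar carbons back to glycolysis. Most steps are served by several isozymes, whose genes differ in the tissues that use them. Proliferating fibroblasts are known for high glycolysis and for release of lactate.

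Dnmt1 itself (chr9:20711650-20757317, minus strand, NCBIM37) was at 65.2 RPKM in Dnmt1+/+ and 14.5 RPKM in Dnmt1-/- MEFs, a log2 change of -2.16, which goes with the labels. Of all entries, 11244 had status OK, a symbol and at least 1 RPKM in one library or the other. Their median log2 change was -0.14, with quartiles of -0.56 and 0.27, and changes are to be read relative to that shift. Of the 13 fibroblast markers listed, 12 passed the filter, and their summed level was 7289 RPKM in Dnmt1+/+ and 5994 RPKM in Dnmt1-/- MEFs. Of these 12, 2 were higher and 3 lower by more than 2-fold, beside 8.47% and 10.9% of the 11244 entries. The higher ones were S100a4 at 289.6 and 1262 RPKM and Pdgfra at 6.95 and 18.7 RPKM, and the lower ones were Col1a2 at 1241 and 475.9 RPKM, Fn1 at 663.7 and 235.5 RPKM and Thy1 at 4.84 and 0.129 RPKM. The 8 of 10 blood and endothelial markers found summed to 1.10 RPKM in Dnmt1+/+ and 10.5 RPKM in Dnmt1-/- MEFs, with Csf1r at 0.0702 and 6.08 RPKM, Cd68 at 0.596 and 3.63 RPKM, and the defining markers Ptprc and Emr1 at 0 in both. The 7 of 8 epithelial markers found summed to 0.363 and 2.19 RPKM. Most of the second sum was an entry shared by Krt14 and Krt17, at 0.0349 and 1.46 RPKM. Krt18 (0.0358 and 0.441 RPKM) and Krt8 (0 and 0.216 RPKM) were also higher. Cdh1 (0.203 and 0.0700 RPKM), Epcam (0.0466 and 0.00921 RPKM) and Krt5 (0.0425 and 0 RPKM) were lower, and Cldn3 was at 0 in both. The 7 of 8 neural markers found summed to 17.1 and 13.4 RPKM, or 0.116 and 0.518 RPKM without Tubb3. The part these other transcripts have in the results below was not tested.

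Promoters of some members are shown first, because the mutated enzyme maintains methylation of CpG dinucleotides. They were not taken by size of change alone, since Pdk1 and Pdk2 lay further below 0 than Tkt and are not shown. Each sequence comes from the RefSeq promoter table (GRCm38.p6, 250 bases before and 50 bases after the start) and was located by an exact match in NCBIM37, the build of the expression values. CpG dinucleotides are in capitals. Ldhb (chr6:142456428-142456727, minus strand, 17 CpG) and Pfkfb1 (chrX:147022536-147022835, plus strand, 20 CpG) are the members with the largest decreases. The deposited Pfkfb1 entry begins 1573 bases past the annotated start of the gene, so the Pfkfb1 window shown does not adjoin that entry. Ldha (chr7:54100924-54101223, plus strand, 30 CpG) is the partner of Ldhb at the same step, and its RefSeq start lies within the span annotated for the gene. Tkt (chr14:31362067-31362366, plus strand, 20 CpG) and Taldo1 (chr7:148577809-148578108, plus strand, 22 CpG) encode consecutive enzymes and lay on opposite sides of 2-fold.
Ldhb: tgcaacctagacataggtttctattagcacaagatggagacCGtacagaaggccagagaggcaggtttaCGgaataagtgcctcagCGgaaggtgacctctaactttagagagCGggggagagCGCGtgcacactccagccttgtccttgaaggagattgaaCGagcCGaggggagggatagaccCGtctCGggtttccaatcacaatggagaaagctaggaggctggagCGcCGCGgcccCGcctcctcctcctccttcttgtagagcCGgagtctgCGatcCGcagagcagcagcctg
Ldha: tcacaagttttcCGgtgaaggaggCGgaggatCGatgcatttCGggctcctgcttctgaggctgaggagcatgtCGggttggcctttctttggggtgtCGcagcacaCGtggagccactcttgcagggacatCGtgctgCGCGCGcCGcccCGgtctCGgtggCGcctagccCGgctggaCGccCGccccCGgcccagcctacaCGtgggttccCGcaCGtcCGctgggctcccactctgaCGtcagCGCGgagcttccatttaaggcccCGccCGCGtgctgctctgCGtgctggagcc
Pfkfb1: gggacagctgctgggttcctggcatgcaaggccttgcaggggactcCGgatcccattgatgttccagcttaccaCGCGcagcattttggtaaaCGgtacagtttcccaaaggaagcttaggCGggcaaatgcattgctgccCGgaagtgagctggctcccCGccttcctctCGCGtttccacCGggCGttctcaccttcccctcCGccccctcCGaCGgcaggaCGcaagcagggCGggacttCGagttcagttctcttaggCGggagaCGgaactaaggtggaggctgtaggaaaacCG
Tkt: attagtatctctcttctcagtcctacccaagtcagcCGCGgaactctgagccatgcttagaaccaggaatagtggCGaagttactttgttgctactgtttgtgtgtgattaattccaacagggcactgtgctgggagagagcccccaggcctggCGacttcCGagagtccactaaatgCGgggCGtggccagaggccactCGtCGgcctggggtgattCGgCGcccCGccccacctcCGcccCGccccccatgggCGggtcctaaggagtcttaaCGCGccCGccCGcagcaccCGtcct
Taldo1: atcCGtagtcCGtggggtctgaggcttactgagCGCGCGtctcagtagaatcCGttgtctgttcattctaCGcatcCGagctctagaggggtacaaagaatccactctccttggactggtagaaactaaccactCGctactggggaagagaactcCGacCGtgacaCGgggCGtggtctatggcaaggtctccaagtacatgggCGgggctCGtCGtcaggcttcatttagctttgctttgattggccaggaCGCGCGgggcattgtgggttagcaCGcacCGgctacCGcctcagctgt

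A promoter was matched for 38 of the 39 members, and none was at hand for Slc2a3. The members held a median of 19 CpG in 300 bases, ranging from 0 to 42, against a median of 7 and quartiles of 3 and 20 over 32851 RefSeq promoters. DNA methylation was not analysed here, so the capitals mark where methylation could sit and not whether it did. The letters ACGTG, one form of the core of the hypoxia response element, were searched on both strands (the other strand reads CACGT). The form GCGTG was not searched, and windows without ACGTG can hold it, as those of Tkt, Taldo1 and Ldhb do. ACGTG occurred in 13 members (34.2%) and in 19.6% of all promoters. The E-box CACGTG, which contains ACGTG, occurred in 5 members (13.2%) and in 7.15% of all. Both strings contain a CpG, and the members' median of CpG was above that of all promoters, so these shares are not matched for CpG content. Of the 5 promoters shown, the one of Ldha holds both. Among the 33 members with a matched promoter that passed the filter, the 11 with ACGTG had a median log2 change of -0.17, with 0 past 2-fold on the high side and 1 (Pdk2) on the low side. The 22 without it had a median of -0.40, with 1 past 2-fold on the high side and 4 on the low side. Over all entries kept, 8.47% lay past 2-fold on the high side and 10.9% on the low side. A match of these letters is a description of the window and not a binding site.

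Most members lay within 2-fold between the 2 libraries, and those past 2-fold were mainly on the low side. Of the 34 members that passed the filter, 27 were within 2-fold. Only Taldo1 (2.94%) exceeded 2-fold on the high side in Dnmt1-/- MEFs, against 8.47% of all entries kept. Those more than 2-fold lower were Ldhb, Pfkfb1, Slc2a3, Pdk1, Pdk2 and Tkt, which are 6 members (17.6%) against 10.9% of all entries kept. The members' median log2 change was -0.30, with quartiles of -0.73 and 0.02, beside -0.14 over all entries. A value below 0 was found for 24 members and above 0 for 10, beside 59.6% of all entries kept below 0. Below the median of all entries lay 22 members. Closest to the threshold were Tkt at -1.02, just past it, and Pfkfb4 at -0.96 and Pgd at -0.95, just within it. With the median of all entries subtracted, Tkt came to -0.88 and 5 members were more than 2-fold lower, beside 8.58% of all entries. Summed over the members, the level was 3198 RPKM in Dnmt1+/+ and 2915 RPKM in Dnmt1-/- MEFs, with 9 and 7 members above 100 RPKM.

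**Figure D1:**
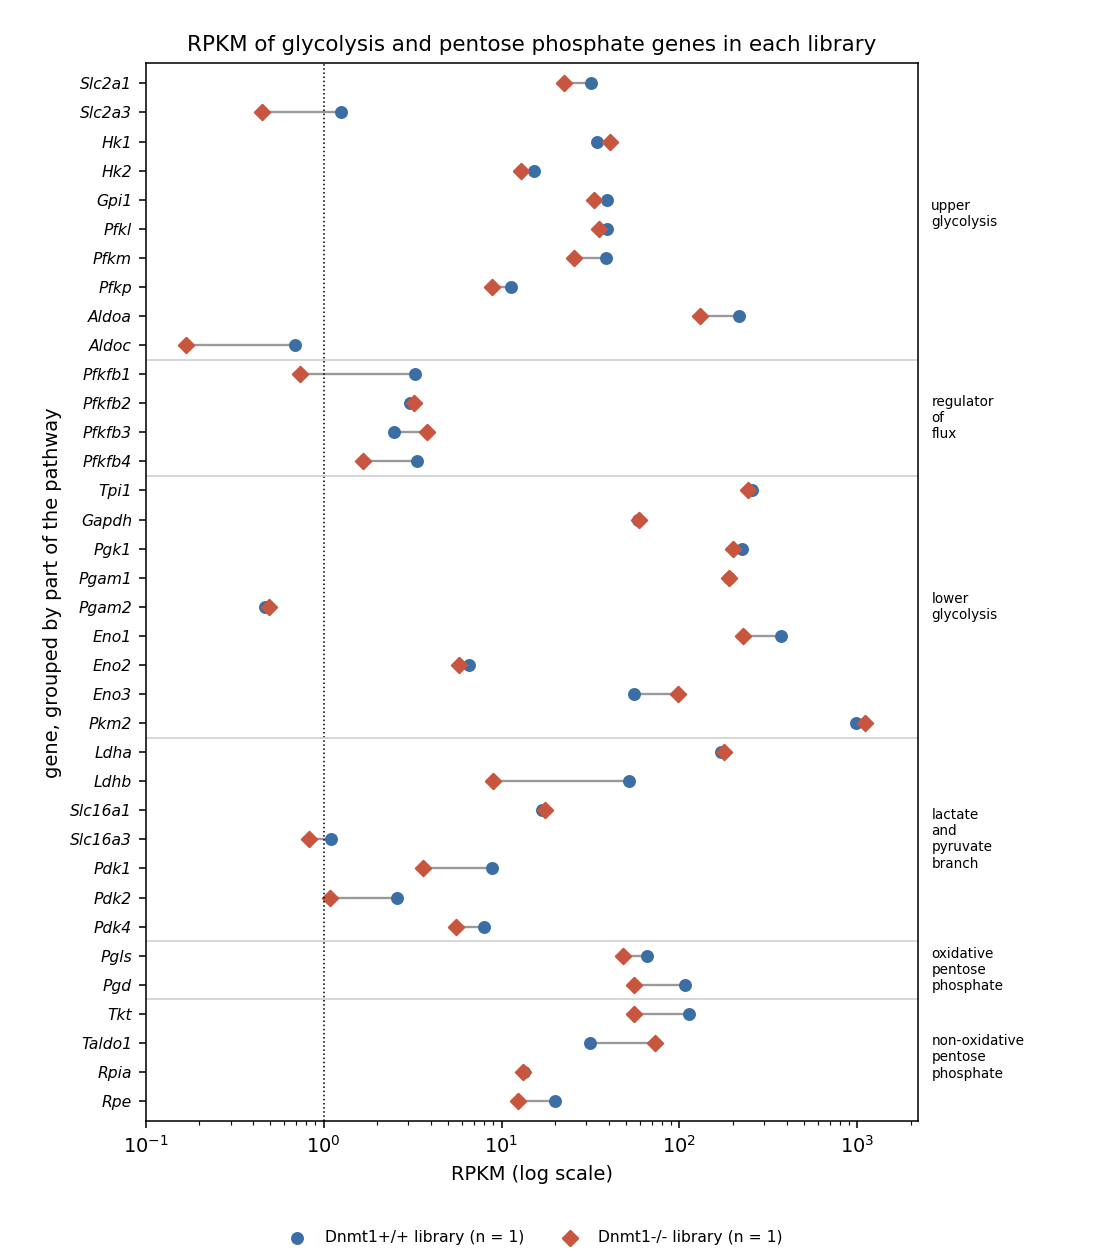
Level of each member in RPKM on a log axis, with a circle for the Dnmt1+/+ library and a diamond for the Dnmt1-/- library, in pathway order, and a dotted line at 1 RPKM. Pkm2 sits at the top of the range in both libraries (981.9 and 1098 RPKM), and the widest gaps among the members that reached 1 RPKM in either library are those of Ldhb and Pfkfb1.

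Glucose enters fibroblasts through the facilitative carriers encoded by Slc2a1 (GLUT1) and Slc2a3 (GLUT3). Slc2a1 was at 31.7 RPKM in Dnmt1+/+ and 22.4 RPKM in Dnmt1-/- MEFs, a log2 change of -0.50. Slc2a3 was low in both, at 1.26 and 0.448 RPKM, which is 2.80-fold lower in Dnmt1-/- (log2 change -1.31). Its share of the summed level of the pair was 3.81% and 1.97%, so Slc2a1 made up nearly all of the pair's transcript in both libraries. Other Slc2a carriers are not in this share, among them Slc2a10 at 4.01 and 0.290 RPKM and Slc2a8 at 1.98 and 2.01 RPKM. Hexokinase, which phosphorylates glucose and keeps it in the cell, was represented by Hk1 at 34.5 and 40.6 RPKM and Hk2 at 15.2 and 12.9 RPKM. These are log2 changes of 0.23 and -0.24, on either side of 0, and the share of Hk2 was 30.6% in Dnmt1+/+ and 24.1% in Dnmt1-/-. Gpi1, the isomerase that follows, was at 38.9 and 33.1 RPKM (-0.23).

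Phosphofructokinase is the committing step of glycolysis and assembles from liver, muscle and platelet subunits. Pfkl, the liver type, was at 39.2 and 35.3 RPKM (-0.15). Pfkm, the muscle type, was at 38.7 and 25.7 RPKM (-0.59), and Pfkp, the platelet type, was at 11.3 and 8.79 RPKM (-0.36). Pfkl and Pfkm thus had like shares in Dnmt1+/+ MEFs, at 43.9% and 43.4%, and stood at 50.6% and 36.8% in Dnmt1-/- MEFs, while Pfkp kept to 12.7% and 12.6%. Genes overlap at 2 of these loci. Senp1, at the Pfkm locus, was at 9.61 and 11.7 RPKM, and Pitrm1, at the Pfkp locus, was at 67.4 and 46.1 RPKM, well above Pfkp itself. Entries without a symbol also lay at the Pfkp locus, at 7.30 and 0.972 RPKM and at 1.88 and 1.81 RPKM. Whether reads were assigned by strand is not stated, so the values of Pfkm and Pfkp are uncertain to that extent. Over all members, 8 had another entry at their locus (Hk1, Gpi1, Pfkm, Pfkp, Pfkfb2, Tpi1, Gapdh and Rpe).

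The Pfkfb genes encode the bifunctional enzymes that make and remove the sugar phosphate which activates phosphofructokinase. All 4 were low in these cells, and they differed more among themselves than did the catalytic subunits. Pfkfb1, the liver and muscle form (chrX:147022772-147078421, plus strand), was at 3.27 RPKM in Dnmt1+/+ and 0.739 RPKM in Dnmt1-/- MEFs. This is 4.43-fold lower, with a log2 change of -2.01. Pfkfb4 was at 3.34 and 1.66 RPKM (-0.96), and Pfkfb2, the heart form, was at 3.07 and 3.24 RPKM (0.08). Pfkfb3, the form known from proliferating cells, was at 2.49 and 3.82 RPKM, 1.54-fold higher in Dnmt1-/- (0.60).

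In Dnmt1+/+ MEFs the summed level of 12.2 RPKM was spread nearly evenly over the 4, with Pfkfb4 at 27.4%, Pfkfb1 at 26.9%, Pfkfb2 at 25.2% and Pfkfb3 at 20.5%. In Dnmt1-/- MEFs the sum was 9.46 RPKM, Pfkfb3 led with 40.4%, Pfkfb2 had 34.2%, Pfkfb4 had 17.6% and Pfkfb1 had 7.81%. Shares are taken within a library and do not depend on how the libraries were scaled against each other. Pfkfb1 and Pgk1 are the 2 members kept that lie on the X chromosome. Over the 394 X-linked entries kept the median was -0.39, and 24.9% lay past 2-fold on the low side. Xist, the RNA that coats the inactive X, was at 0.00648 RPKM in Dnmt1+/+ and 37.0 RPKM in Dnmt1-/- MEFs. The Pfkfb1 promoter shown lies within the locus of Apex2, the gene on the opposite strand, whose entry shares 795 bases with annotated Pfkfb1 and ends 778 bases short of the deposited Pfkfb1 entry. Apex2 had 2 entries, at 2.24 and 1.01 RPKM (-1.08) and at 9.10 and 2.45 RPKM (-1.85). The part of the X chromosome or of Apex2 reads in the value of Pfkfb1 was not tested.

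Aldolase splits the hexose bisphosphate into a pair of trioses. Aldoa, the main form outside liver and brain, was at 217.1 RPKM in Dnmt1+/+ and 130.0 RPKM in Dnmt1-/- MEFs (-0.74). Aldoc, the brain form, was at 0.694 and 0.168 RPKM, under the filter in both, and held 0.319% and 0.129% of the aldolase level. Over the 9 members of upper glycolysis kept, from the carriers to aldolase, the median log2 change was -0.36. Of these, 0 were higher and 1 lower by more than 2-fold, beside 8.47% and 10.9% of all entries kept. With Aldoc included, the summed level of this part was 428.7 RPKM in Dnmt1+/+ and 309.4 RPKM in Dnmt1-/- MEFs, most of the difference coming from Aldoa.

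Lower glycolysis, from triose phosphate to pyruvate, held the most abundant transcripts and no member past 2-fold. The sum of its 9 members with an entry, Pgam2 included, was 2146 RPKM in Dnmt1+/+ and 2123 RPKM in Dnmt1-/- MEFs. Entries at close copies are not in these sums. Among them were Gm5506, a copy of Eno1, at 764.6 and 496.7 RPKM, and 3 short entries matching Tpi1, which summed to 714.1 and 735.3 RPKM. Over the 8 members kept, the median log2 change was -0.03, with a range from -0.71 to 0.82. Tpi1, the triose isomerase, was at 255.8 and 243.4 RPKM (-0.07). Gapdh, the NADH-producing dehydrogenase of this branch, was at 58.4 and 59.5 RPKM (0.03), a level that is uncertain because 116 stretches of the genome match its transcript closely. Pgk1, the first ATP-making kinase, was at 223.4 and 199.1 RPKM (-0.17). Pgam1, the mutase, was at 190.3 and 190.7 RPKM (0.00), and its muscle form Pgam2 stayed at 0.467 and 0.496 RPKM. Pkm2, the entry of the pyruvate kinase gene now called Pkm, was the highest member in both libraries at 981.9 and 1098 RPKM (0.16). The entry does not separate the M1 and M2 splice forms.

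Enolase was the step of lower glycolysis at which the isozymes differed most. Eno1, the widely expressed form (chr4:149610830-149622988, plus strand), was at 373.3 RPKM in Dnmt1+/+ and 228.0 RPKM in Dnmt1-/- MEFs, 1.64-fold lower (-0.71). Eno3, the muscle form (chr11:70470704-70476015, plus strand), was at 55.6 and 97.8 RPKM, 1.76-fold higher (0.82). Eno2, the neuronal form, was at 6.56 and 5.76 RPKM (-0.18). The share of Eno3 was thus 12.8% in Dnmt1+/+ and 29.5% in Dnmt1-/- MEFs, that of Eno1 was 85.7% and 68.8%, and the log2 ratio of Eno3 to Eno1 differed by 1.53 between the libraries.

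Several values stand beside the enolase result. Gm5506, a near-identical copy of Eno1 (99.5% identity), was itself at 764.6 and 496.7 RPKM, and with it added to Eno1 the share of Eno3 was 4.63% and 11.8%. Profilin 1 (Pfn1), on the opposite strand 2557 bases from Eno3, was at 519.3 and 865.5 RPKM (0.74), so Eno3 was at 0.107 and 0.113 of Pfn1 in the 2 libraries. All 12 skeletal muscle markers listed had an entry, and 3 passed the filter. Of these 3, 2 exceeded 2-fold on the high side, Myf5 and Tnni2 (0.750 and 1.77 RPKM), beside 8.47% of all entries kept. Both reached 1 RPKM only in Dnmt1-/- MEFs and so passed the filter through the library where they were high. The count therefore says nothing about muscle transcripts as a set. The summed level of all 12 was 30.8 RPKM in Dnmt1+/+ and 48.9 RPKM in Dnmt1-/- MEFs, nearly all of it Acta1 at 28.8 and 42.8 RPKM. Of the defining genes of muscle, Myod1 was at 0 and 0.0489 RPKM, Ckm at 0 and 0.0402 RPKM, and Myf5 at 0.106 and 3.28 RPKM, while Des was at 0.318 and 0.0780 RPKM and Mb at 0.382 and 0 RPKM. The part of neighbouring reads or of muscle transcripts in the value of Eno3 was not tested.

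Lactate dehydrogenase showed the largest decrease among the members that passed the filter, and it concerned 1 isozyme. Ldhb, the heart-type subunit that favours lactate oxidation (chr6:142438769-142456477, minus strand), was at 52.0 RPKM in Dnmt1+/+ and 9.0 RPKM in Dnmt1-/- MEFs. This is 5.77-fold lower, with a log2 change of -2.52, and 2.47% of all entries kept lay lower still. Ldha, the muscle-type subunit that favours lactate formation (chr7:54096845-54110997, plus strand), was at 172.0 and 178.2 RPKM (0.05). The share of Ldhb was 23.2% in Dnmt1+/+ and 4.81% in Dnmt1-/- MEFs, and the ratio of Ldhb to Ldha was 0.302 and 0.0505. A close copy of Ldhb (chr19:22011825-22013058, 97.6% identity) had an entry at 50.02 and 10.5 RPKM, near the level of Ldhb itself in each library. With it added, the share of Ldhb was 37.2% and 9.85%, and with a 247-base entry matching Ldha (128.2 and 162.2 RPKM) added to Ldha as well it was 25.4% and 5.41%. RPKM is relative to length, so the last sum counts this short entry as if it were a whole Ldha transcript.

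**Figure D2:**
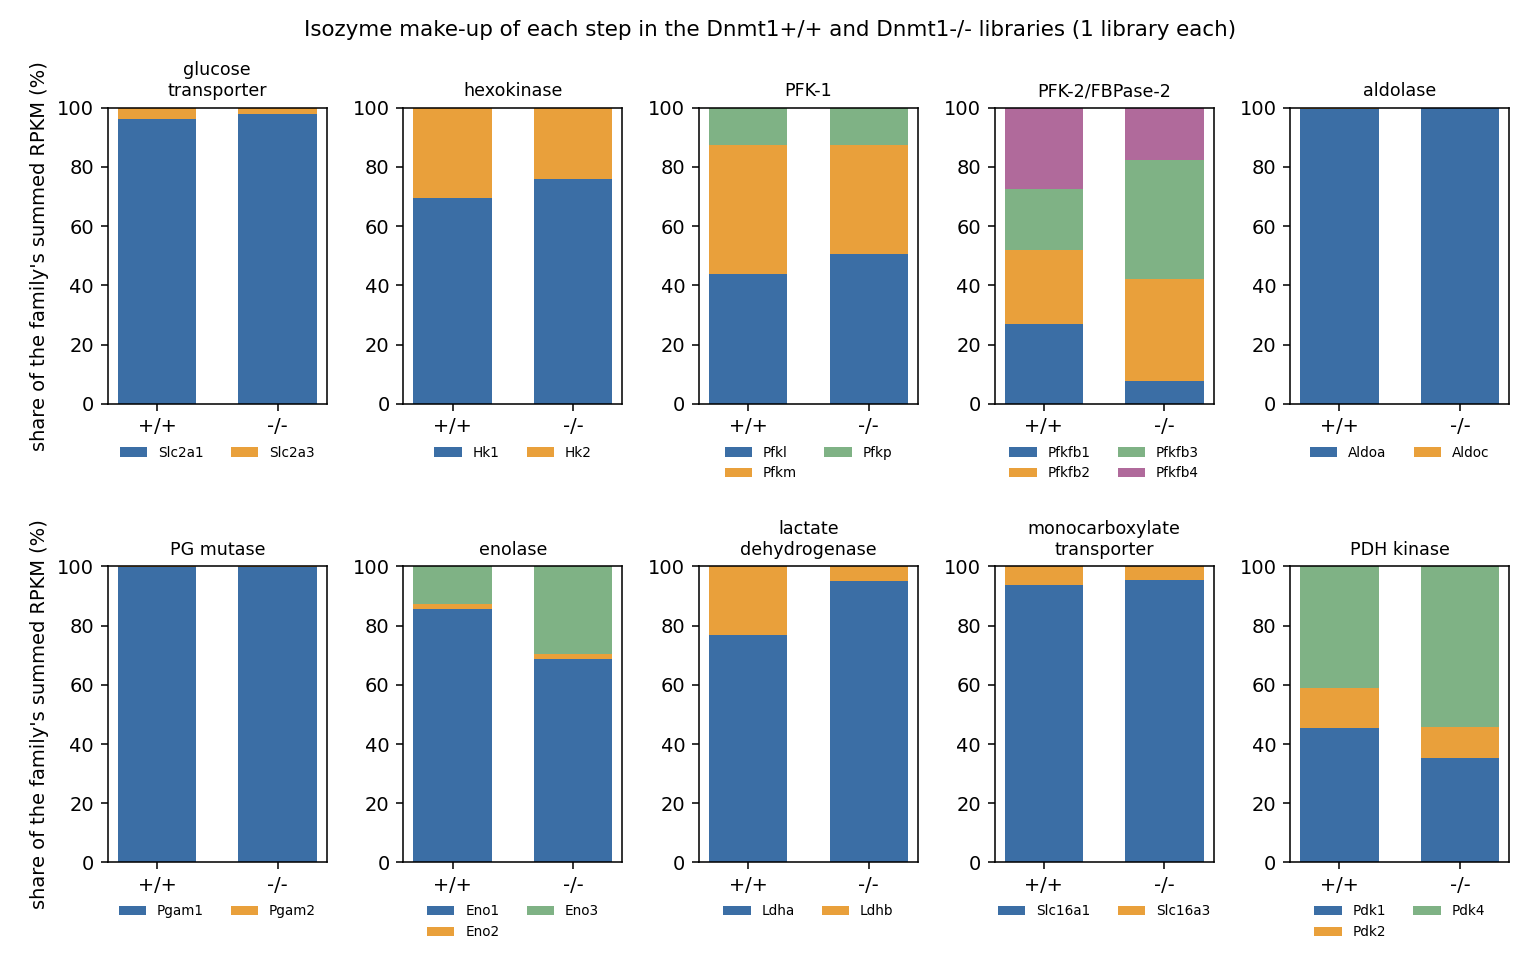
Share of the summed RPKM of each step held by each isozyme (percent, stacked bars from 0 to 100), for the Dnmt1+/+ and the Dnmt1-/- library side by side. The leading isozyme is another one in Dnmt1-/- for Pfkfb (Pfkfb4, then Pfkfb3) and, among the 3 Pdk members without Pdk3, for Pdk (Pdk1, then Pdk4), and the share of Ldhb is 23.2% beside 4.81%.

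The carriers that move lactate across the membrane lay within 2-fold. Slc16a1 (MCT1) was at 16.9 and 17.5 RPKM (0.05), and Slc16a3 (MCT4), the form linked to lactate export, was at 1.10 and 0.831 RPKM (-0.37). The Pdk kinases phosphorylate pyruvate dehydrogenase and so keep pyruvate from being oxidized, and 2 of the 3 members were lower by more than 2-fold. Pdk1 was at 8.81 and 3.61 RPKM, 2.44-fold lower (-1.26). Pdk2 was at 2.58 and 1.08 RPKM, 2.38-fold lower (-1.18). Pdk4, the form known for its response to fasting, was at 7.96 and 5.55 RPKM (-0.51). Within these 3, Pdk1 led in Dnmt1+/+ MEFs with 45.5% and Pdk4 led in Dnmt1-/- MEFs with 54.2%. Pdk3, which is X-linked and no member of the list, was above all of them at 30.0 and 26.9 RPKM (-0.16). With it counted, Pdk3 led in both libraries with 60.8% and 72.4%, Pdk1 held 17.8% and 9.73%, and Pdk4 16.1% and 15.0%. Over the 7 members of lactate and pyruvate handling kept, the median was -0.51. Of these 7, 3 were lower and 0 higher by more than 2-fold, beside 10.9% and 8.47% of all entries kept.

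The pentose phosphate genes held values on both sides of 0. In the oxidative branch, Pgls, the lactonase, was at 65.8 and 48.2 RPKM (-0.45). Pgd, the dehydrogenase that yields NADPH and ribulose-phosphate, was at 107.4 and 55.6 RPKM, 1.93-fold lower (-0.95). In the non-oxidative branch, the isomerase Rpia was at 13.3 and 13.1 RPKM (-0.02) and the epimerase Rpe at 19.9 and 12.4 RPKM (-0.68).

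Transketolase and transaldolase, which hand sugar fragments from one to the other, showed opposite values. Tkt (chr14:31361545-31387908, plus strand) was at 112.4 RPKM in Dnmt1+/+ and 55.3 RPKM in Dnmt1-/- MEFs, 2.03-fold lower (-1.02). Taldo1 (chr7:148578098-148588867, plus strand) was at 31.3 and 73.2 RPKM, 2.34-fold higher (1.22), and 7.11% of all entries kept lay higher still. The ratio of Taldo1 to Tkt was 0.279 in Dnmt1+/+ and 1.32 in Dnmt1-/- MEFs, so the more abundant of the pair was another one in each library. The summed level of the oxidative branch was 173.2 and 103.8 RPKM, and that of the 4 non-oxidative genes was 176.9 and 153.9 RPKM.

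**Figure D3:**
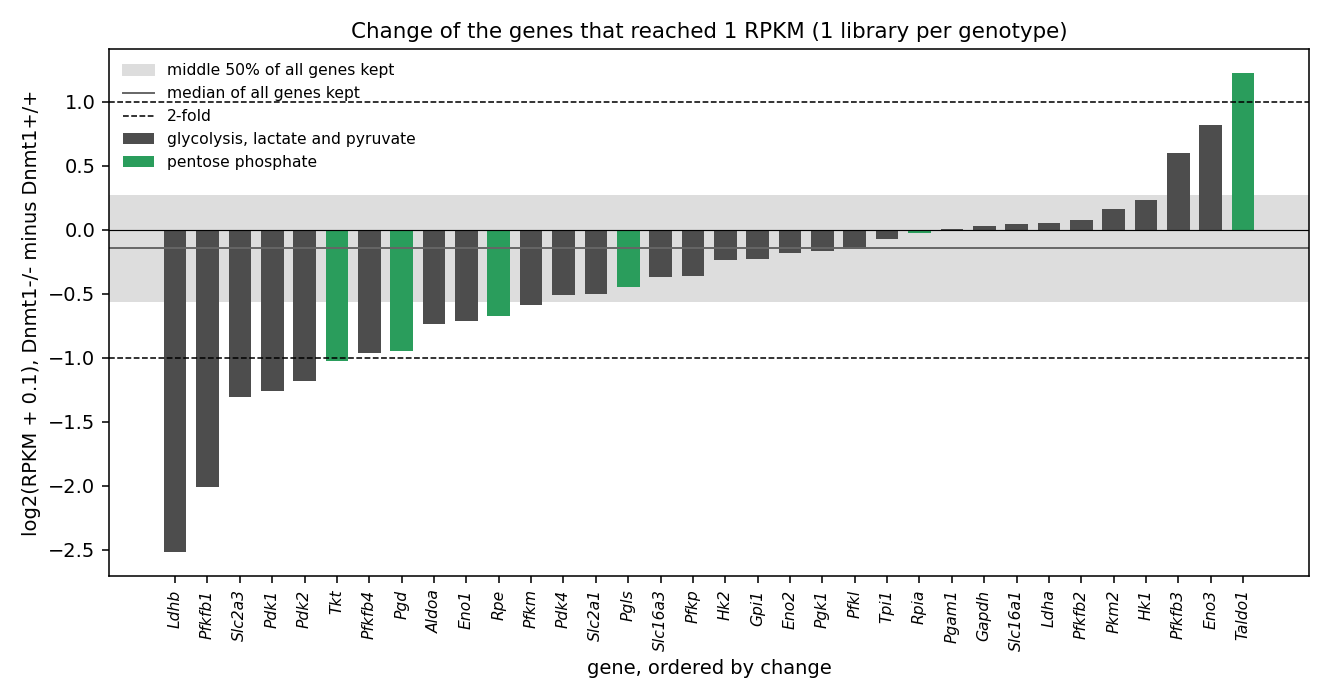
Log2 change of each member kept, Dnmt1-/- minus Dnmt1+/+ on the log2(RPKM + 0.1) scale, as bars ordered by size, green for the pentose phosphate genes, with dashed lines at 2-fold, a line at the median of all entries (-0.14) and grey between their quartiles. Taldo1 at 1.22 is the only bar past the upper 2-fold line, and 6 bars reach past the lower one.

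Genes outside the list were counted in the same way, with the same 8.47% and 10.9% of all entries as the background. Of 13 other enzymes of glycolysis and gluconeogenesis kept, 1 was higher and 1 lower by more than 2-fold, with a median of -0.25. These were Galm, which interconverts the forms of free sugars, at 2.95 and 6.75 RPKM (1.17), and Pck2, the mitochondrial enzyme that makes phosphoenolpyruvate, at 148.3 and 46.5 RPKM (-1.67). Of 6 other glucose and lactate carriers kept, only Slc2a10 passed 2-fold, at 4.01 and 0.290 RPKM (-3.40), while Bsg, the chaperone of the lactate carriers, was at 381.6 and 483.7 RPKM (0.34). Of 5 other pentose phosphate genes kept, Prps1, the X-linked enzyme that activates ribose-phosphate for nucleotide synthesis, was at 30.3 and 9.77 RPKM (-1.62).

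The pyruvate dehydrogenase complex and its phosphatases had 9 entries kept, of which 2 were lower and 0 higher by more than 2-fold, with a median of -0.49. Pdp1 and Pdp2, the phosphatases that undo the action of the Pdk kinases, were these 2. Pdp1 was at 7.09 and 2.40 RPKM (-1.52), and Pdp2 was at 5.85 and 2.86 RPKM (-1.01). With the median of all entries subtracted only Pdp1 stayed past 2-fold, beside 8.58% of all entries on the low side. Values below 0 were thus found for Pdk1 and Pdk2 and for the phosphatases that oppose them. Pdha1, the catalytic subunit on the X chromosome, was at 108.2 and 64.0 RPKM (-0.76).

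Transcription factors and sensors that act on glycolytic genes had 15 entries kept and a median of -0.01, with 0 higher and 2 lower by more than 2-fold. The 2 were Arrdc4, a sugar-responsive arrestin (1.45 and 0.208 RPKM, -2.33), and Egln3, a prolyl hydroxylase that marks hypoxia-inducible factor for destruction (7.33 and 1.40 RPKM, -2.31). Hif1a, which encodes the oxygen-labile subunit of hypoxia-inducible factor, was at 48.1 and 30.7 RPKM (-0.65), and Myc was at 36.1 and 48.5 RPKM (0.42). With the median of all entries subtracted, 1 of the 15 was past 2-fold on the high side, beside 9.71% of all entries. It was Txnip, an inhibitor of glucose uptake, at 9.31 and 17.3 RPKM (0.89 before subtraction). Of 18 hypoxia-inducible genes outside glycolysis kept, 1 was higher and 4 lower by more than 2-fold, with a median of -0.22. The 4 were Ddit4, an inhibitor of mTOR signalling, at 61.9 and 8.68 RPKM (-2.82), the growth factor Vegfa at 45.9 and 21.8 RPKM (-1.07), Ndrg1 at 42.2 and 20.8 RPKM (-1.02), and the oxidase Ero1l at 39.6 and 19.5 RPKM (-1.01). The higher one was the secreted hormone Stc2 at 1.87 and 3.96 RPKM (1.05). With the median of all entries subtracted, 2 of the 18 were higher and 1 lower by more than 2-fold, beside 9.71% and 8.58% of all entries. That count thus rests on values close to the threshold.

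**Figure D4:**
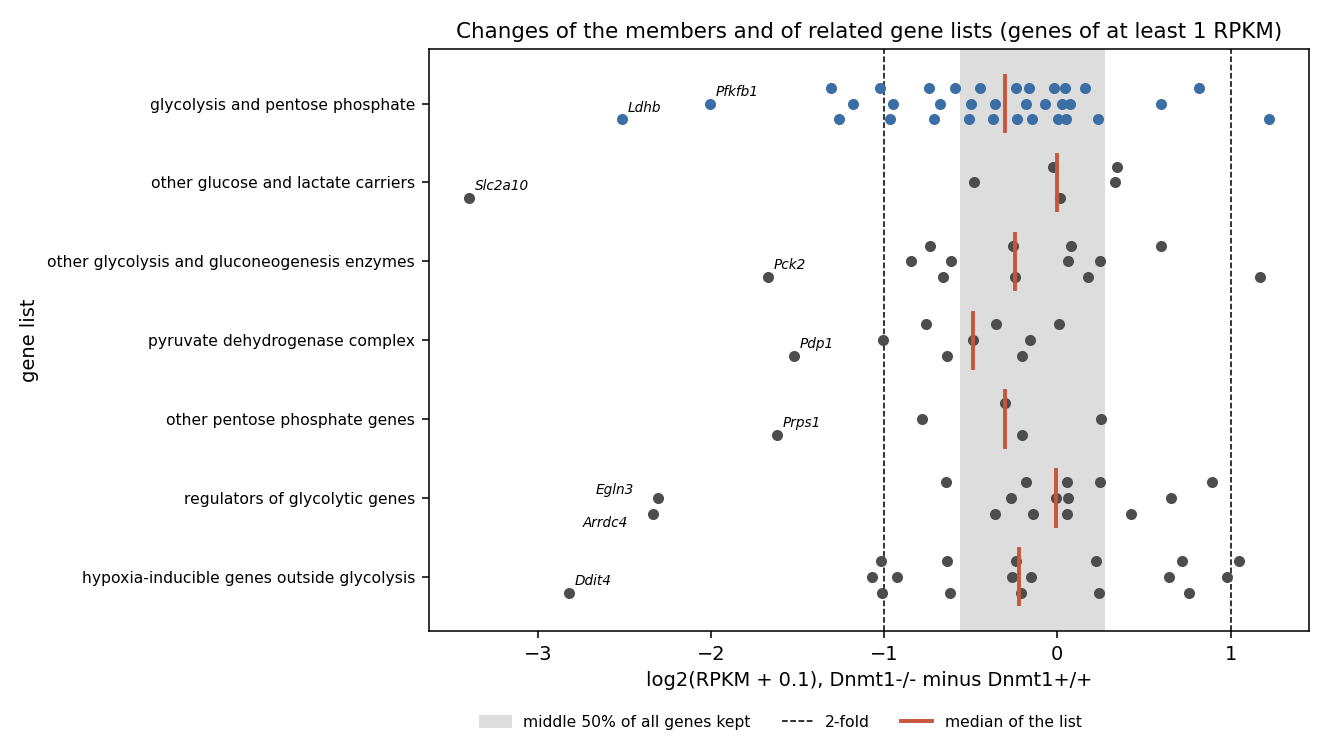
Log2 change (Dnmt1-/- minus Dnmt1+/+, log2(RPKM + 0.1) scale) of the members (blue) and of every entry kept in 6 lists of related genes, with 1 point per entry, a red bar at each median, dashed lines at 2-fold and grey between the quartiles of all entries. The medians lie between -0.49 (pyruvate dehydrogenase complex) and 0.00 (other carriers), and Ddit4 and Slc2a10 are among the lowest points.

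Testis forms of these enzymes were looked up because a set of glycolytic isozymes is known from sperm. Ldhc, the sperm form of lactate dehydrogenase, was at 0 RPKM in each library. Of the 9 testis isozymes listed, 5 had an entry and only Aldoart2, a retrogene of Aldoa, was kept, at 9.13 and 4.86 RPKM (-0.89), which is 0.0420 and 0.0374 of Aldoa in the 2 libraries. The 12 germ cell markers summed to 0.803 RPKM in Dnmt1+/+ and 3.66 RPKM in Dnmt1-/- MEFs, of which Tex101 made up 0 and 3.31 RPKM. Lower in Dnmt1-/- were Prm1 at 0.354 and 0.126 RPKM, Sycp3 at 0.338 and 0.0543 RPKM, Prm2 and Odf1. Beside Tex101, those higher were Dazl at 0 and 0.119 RPKM, Ddx4, Sycp1 and Acr. Mael, Tnp1 and Stra8 were at 0 in both.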

How the data were processed

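Strand-specific mRNA libraries were sequenced from 1 line per genotype. The authors mapped reads to mm9 with TopHat and used Cufflinks and Cuffdiff (versions not given in the sources used here) to obtain the deposited RPKM values, 1 column per library, with a status per entry. Whether strand entered the counting, and any scaling beyond mapped reads, is not stated. The columns of the authors' own comparison were not used.

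Entries were kept with status OK, a symbol and at least 1 RPKM in either library. A pseudocount of 0.1 was added before taking log2, and 2-fold was the threshold. Members and lists were chosen with earlier results of these data known, and 1 listed gene is not reported here. All members are named, and genes of other lists where past 2-fold (at most 4 a direction) or as markers. Bsg, Pdk3, Pdha1, Hif1a, Myc, Txnip, Pfn1, Apex2, Xist and the copies were added after their values were seen. RPKM values carry no counts, so depth and counting intervals are unknown. Among 671 entries with both values above 0 and under 0.05 RPKM, the fullest bin of the log2 ratio was -0.2 to -0.1, with 62 entries. Copies (at least 90% identity over 50% of a transcript) were found with minimap2 2.31 in NCBIM37, which is mm9, with GENCODE genes. Where RefSeq gave several starts, the one nearest the annotated 5′ end was used. Alternatives were pseudocounts of 1 and 0.01 or none, other filters, subtraction of the median, a 1.5-fold threshold, autosomes only, single entries and, added later, copies and Pdk3. Scripts (Python 3.11.15, numpy 2.4.6, pandas 2.3.3, matplotlib 3.10.9) were tested on simulated data.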

Additional observations from a re-analysis of the deposited data

How the results depend on the processing

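No paired analysis was possible because there was 1 library per genotype, and for the same reason no replicate could be left out. The count of members more than 2-fold higher was 1 at every 2-fold setting and 3 at 1.5-fold, where Eno3 and Pfkfb3 joined Taldo1. The count of members lower was 12 at 1.5-fold, beside 14.1% of all entries higher and 23.7% lower at that threshold. At 2-fold it was 4 with a pseudocount of 1, without Slc2a3 and Pdk2 (7.12% of all entries). It was 7 with a pseudocount of 0.01 (11.4%), with none (11.5%) or with no filter (11.1%). It was 5 with the filter on mean RPKM (9.89%), with the median subtracted (8.58%) or for autosomal members alone (10.9%, X-linked entries included). The median log2 change of the members, -0.30, was -0.22 with a pseudocount of 1, -0.23 with a mean of at least 1 RPKM and -0.16 with the median of all entries subtracted. The difference in the log2 ratio of Aldoc to Aldoa reversed, from -0.83 to 0.20, with a pseudocount of 1. Aldoc was under 1 RPKM in both libraries, and the cause was not tested. Of 15 isozyme ratio differences with that pseudocount, 6 moved little, 8 moved and this 1 reversed. The number of steps with another leading isozyme was 2 with the highest entry of each symbol or without symbols under 1 RPKM, and 1 with Pdk3 counted. That setting and the copies added to Eno1, Ldhb and Ldha (of at least 1000 bases, or of any length) were chosen after seeing the data, and the copies moved the shares of Eno3 and Ldhb as given above. The absence of counts, of replicates and of a known scaling between libraries limits every change near the threshold.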

Other observations

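Several members have close copies elsewhere in the genome, and entries at some of those places carried large values. Of the 39 members, 11 had at least 1 copy with 90% identity or more over at least 50% of the transcript, and 28 had none. Gapdh had 116, Ldha 7, Eno1 5, Aldoa and Pgam1 3 each, Tpi1, Pgk1 and Pkm2 2 each, and Ldhb, Taldo1 and G6pdx 1 each. A 97-base entry matching Aldoa was at 2834 RPKM in Dnmt1+/+ and 1106 RPKM in Dnmt1-/- MEFs (-1.36), and a 104-base entry was at 310.5 and 50.01 RPKM (-2.63), beside -0.74 for Aldoa. A 60-base entry matching Gapdh was at 1980 and 3621 RPKM (0.87), beside 0.03 for Gapdh. RPKM is relative to length, so entries this short reach a given RPKM with fewer reads than a whole transcript. The longer of the entries matching Pkm2 was at 577.7 and 646.0 RPKM (0.16), equal to the change of Pkm2 itself. The entry of 247 bases matching Ldha had a log2 change of 0.34, beside 0.05 for Ldha. No entry without a symbol lay at the copies of Pgk1, Pgam1 or Taldo1. How the authors' counting divided reads between these places was not tested.

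G6pd2, an intronless relative of G6pdx with 93.2% identity over the match, was at 27.4 RPKM in Dnmt1+/+ and 18.2 RPKM in Dnmt1-/- MEFs (-0.59). G6pdx, which encodes the first enzyme of the oxidative branch, was not analysed here, so no value is given for that step.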
